A study of Mus musculus with 7 samples.

Results

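The genes described here encode 10 acute-phase proteins of the liver, namely Saa1, Saa2, Saa3, Saa4, Hp, Hpx, Orm1, Orm2, Serpina3n and Itih4. They were chosen by name, as the rows of the count table whose Ensembl identifier maps to these symbols, and all 10 were found among 26086 genes with a count. They were measured in precision-cut liver slices (PCLS), thin discs cut from the liver of healthy male Balb/c mice and kept in Williams' E medium (WME) with Ultraglutamine and penicillin-streptomycin until day 3 of culture. There were 3 libraries of slices without valproic acid (CTR) and 4 libraries of slices whose medium held the sodium salt of valproic acid at 2.5 mM (VPA), an inhibitor of histone deacetylases. Slicing wounds the tissue, and no library of uncultured liver was analysed here, so both groups share the cut surface and the days in culture and no level can be set against that of intact liver. In edgeR, log2 fold changes were below 0 for 9 of the 10 genes with VPA, and were largest for Hp, Saa3, Saa2 and Saa1. The mean levels of these were between 4.50-fold and 6.38-fold higher in the CTR libraries. The spread between slices of 1 group was wide, no gene of the 10 passed the test over all genes in edgeR, and Hp passed it in DESeq2.

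The acute-phase response is the change in plasma protein production with which the liver answers injury and infection. Macrophages and other cells release interleukin-6 and interleukin-1, which reach hepatocytes and act through STAT3, C/EBP factors and NF-kB on the genes of the positive acute-phase proteins, while albumin, transthyretin and other negative acute-phase proteins are made less. Serum amyloid A, haptoglobin and orosomucoid are classic positive acute-phase proteins of the mouse.

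The libraries were 3′ end libraries, in which a long transcript draws no more reads than a short one. They held from 1743675 to 4773750 counts in CTR and from 1400887 to 3102450 counts in VPA. Levels are given in CPM, the counts of a gene scaled to the size of its library after TMM normalization. Where a gene had a count of 0, its true level could be as high as that of 3 counts, between 0.591 CPM in the deepest library and 2.41 CPM in the shallowest, a limit for counting error only. The VPA libraries had more genes at 0 where the other libraries predicted counts. Among the genes for which the other libraries predicted at least 20 counts, 1.97%, 2.56% and 2.44% had none in CTR replicates 1 to 3, against 8.97%, 6.57%, 4.67% and 4.02% in VPA replicates 1 to 4. Such a 0 is given below as listed at 0, and its part in each result was not tested. The counting step is not described in the sources used here, so whether such a 0 means that no read of the gene was sequenced cannot be told, and the means and fold changes of Saa2, Saa3, Orm2, Serpina3n and Itih4 rest on such values.

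The 4 serum amyloid A genes lie together on chromosome 7 of GRCm38, within 42316 bases. Saa1 (ENSMUSG00000074115, from 46740497 to 46742980 on the − strand) and Saa2 (ENSMUSG00000057465, from 46751790 to 46754313 on the + strand) are read away from each other from starts that are 8810 bases apart. Saa3 (ENSMUSG00000040026) runs from 46711998 to 46715700 and Saa4 (ENSMUSG00000040017) from 46727998 to 46732603, both on the − strand. RefSeq promoter windows of 250 bases before to 50 bases after the start, in GRCm38.p6, were at hand for 8 of the 10 genes, all but Hp and Orm1. The windows of the Saa genes are shown because these neighbours are the largest family among the 10 genes and 3 of them had log2 fold changes of −2 or below. They are chr7:46742931-46743230 (Saa1), chr7:46751583-46751882 (Saa2), chr7:46715627-46715926 (Saa3) and chr7:46732554-46732853 (Saa4), each written 5′ to 3′ in the direction of the gene, with matches to the C/EBP-type letters TTGCNNAA on either strand in capitals.
Saa1: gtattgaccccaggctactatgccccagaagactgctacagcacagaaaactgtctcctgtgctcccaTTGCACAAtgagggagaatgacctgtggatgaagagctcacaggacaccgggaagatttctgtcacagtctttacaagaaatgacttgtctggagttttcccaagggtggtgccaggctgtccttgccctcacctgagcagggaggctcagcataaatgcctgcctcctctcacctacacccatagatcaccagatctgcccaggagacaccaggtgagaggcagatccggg
Saa2: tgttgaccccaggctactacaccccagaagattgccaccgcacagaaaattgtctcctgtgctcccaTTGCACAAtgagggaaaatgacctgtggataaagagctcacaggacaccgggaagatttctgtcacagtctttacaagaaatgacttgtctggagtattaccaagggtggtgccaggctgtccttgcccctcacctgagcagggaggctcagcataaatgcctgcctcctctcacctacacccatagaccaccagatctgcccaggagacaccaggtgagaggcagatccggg
Saa3: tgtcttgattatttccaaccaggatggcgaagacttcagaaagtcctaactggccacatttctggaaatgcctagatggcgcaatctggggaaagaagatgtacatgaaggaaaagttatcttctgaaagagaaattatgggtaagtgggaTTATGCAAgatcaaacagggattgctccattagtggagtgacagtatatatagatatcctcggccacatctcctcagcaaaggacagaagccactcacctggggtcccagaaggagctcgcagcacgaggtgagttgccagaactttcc
Saa4: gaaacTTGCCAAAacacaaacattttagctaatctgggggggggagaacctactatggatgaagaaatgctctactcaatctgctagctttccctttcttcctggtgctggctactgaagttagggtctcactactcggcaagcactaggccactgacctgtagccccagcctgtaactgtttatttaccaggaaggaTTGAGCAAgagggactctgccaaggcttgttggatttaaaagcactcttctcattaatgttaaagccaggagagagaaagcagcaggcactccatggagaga

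The windows of Saa1 and Saa2 are 95.3% identical and hold the same match, TTGCACAA, which begins 182 bases before the start in Saa1 and 183 bases before it in Saa2. Distances are from the RefSeq start, which for Saa2 and Saa3 is not the GENCODE gene boundary given above. The window of Saa1 is 50.9% identical to that of Saa3 and 46.8% identical to that of Saa4. Saa3 has its match 99 bases before the start, and Saa4 has matches that begin 245 and 52 bases before it. Over all 8 windows, 6 held the C/EBP-type letters (Saa1, Saa2, Saa3, Saa4, Hpx and Orm2), against 10.8% of 32851 mouse promoter windows of the same length. The NF-kB-type letters GGGNN followed by TTTCC were found in 1 window, that of Serpina3n, against 1.63% of all windows. The STAT-type letters TTCNNNGAA were found in 1, that of Itih4, against 8.3%. Both strands were searched, no match overlapped another, and the letters were chosen after the windows had been read. A match describes the sequence and is not evidence of binding.

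The 10 genes together took a smaller share of all counts with VPA, and the groups did not overlap. The share was 0.203%, 0.183% and 0.273% in CTR replicates 1 to 3 and 0.112%, 0.0714%, 0.108% and 0.0763% in VPA replicates 1 to 4. The Wilson 95% interval of a single library was at its widest from 0.265% to 0.281% in CTR replicate 3, and it covers counting error only. The mean share was 0.220% ± 0.0472 (SD, n = 3) in CTR and 0.0918% ± 0.0209 (SD, n = 4) in VPA, a ratio of 0.418, given as a description with no test since it sums over chosen genes. In libraries of whole slices, fewer hepatocytes and less of this RNA per cell cannot be told apart. Of the 10 hepatocyte markers tested, 8 had fold changes above 0 and 2 below, with a median log2 fold change of 0.40. Among all genes tested, 54.2% lay below 0. The markers had 0 genes with an unadjusted p under 0.05 in edgeR. They include Alb, Ttr and Apoa1, which are themselves negative acute-phase proteins, with log2 fold changes of 0.59, 0.01 and −1.54. Alb had 5066 CPM in VPA replicate 1 and 785 to 1910 CPM in the remaining VPA libraries. Cps1 was listed at 0 in CTR replicate 2 and VPA replicate 2, and Cyp2e1 in CTR replicate 1. Whether the number of hepatocytes differed was not tested. Which of the 10 genes made up the acute-phase share differed between libraries. Hp and Hpx held 90.9% of the acute-phase counts in CTR replicate 3 and 46.7% in CTR replicate 2, while the Saa genes held 4.10% and 39.2% there. In VPA the Saa genes held between 4.50% and 18.1%.

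**Figure D1:**
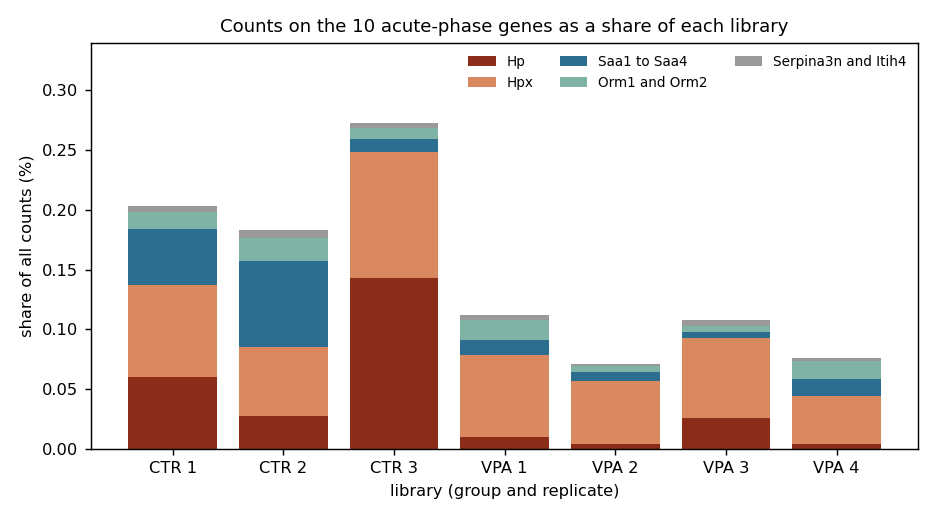
Stacked bars give, for each of the 7 libraries, the counts on Hp, Hpx, the Saa genes, the Orm genes, and Serpina3n with Itih4 as a percent of all counts in that library. The bars of the 3 CTR libraries reach 0.183% to 0.273%, and those of the 4 VPA libraries reach 0.0714% to 0.112%.

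Saa1 and Saa2 encode the serum amyloid A proteins that the inflamed liver secretes and that travel on high-density lipoprotein. Saa1 had 150.1, 195.9 and 32.3 CPM in CTR replicates 1 to 3, and 23.5, 35.7, 12.8 and 40.0 CPM in VPA replicates 1 to 4. CTR replicates 1 and 2 were high and CTR replicate 3 lay among the VPA libraries, so the groups overlapped. CTR replicate 3 carries the same slice culture number as VPA replicate 3, which was the lowest VPA library. The means were 126 ± 84.4 CPM (SD, n = 3) and 28.0 ± 12.3 CPM (SD, n = 4). The log2 fold change was −2.16 (SE, the standard error, 0.610, unadjusted p = 0.00835, adjusted p = 0.393 in edgeR's quasi-likelihood test with Benjamini-Hochberg adjustment). The two-sided exact permutation test of log2 CPM gave p = 0.0857, where 0.0286 is the smallest p that 3 libraries against 4 allow.

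Saa2 had 85.1, 99.3 and 8.22 CPM in CTR, and 22.9, 17.2 and 13.6 CPM in VPA replicates 1, 2 and 4, with VPA replicate 3 listed at 0. As for Saa1, CTR replicate 3 was the low library of its group, here below 3 of the 4 VPA libraries. The log2 fold change was −2.24 (SE 1.07, adjusted p = 0.650 in edgeR; exact permutation test, p = 0.257). Transcripts of Saa1 and Saa2 are 93.9% identical over their length. Of the windows of 50 bases in the last 500 bases of the transcript, which a 3′ library reads, 7.32% of those of Saa1 and 5.32% of those of Saa2 occur in another gene, so most of their 3′ ends can be told apart. The count of Saa1 was 1.76, 1.97 and 3.93 times that of Saa2 in the CTR libraries, and 1.03, 2.07 and 2.94 times in VPA replicates 1, 2 and 4.

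Saa3 is the serum amyloid A gene that macrophages, fat and other tissues outside the hepatocyte also use. It had 249.8, 353.8 and 32.9 CPM in CTR replicates 1 to 3, and 64.6, 26.5 and 85.3 CPM in VPA replicates 1, 3 and 4, with VPA replicate 2 listed at 0. CTR replicates 1 and 2 were again the high libraries, and CTR replicate 3 lay below VPA replicates 1 and 4. For Saa3 the log2 fold change was −2.30 (SE 1.24, adjusted p = 0.712 in edgeR; exact permutation test, p = 0.229). Without VPA replicate 2 the log2 fold change was −1.85, and with each library left out in turn it ranged from −2.86 to −1.71. With limma-voom it was −6.62 (SE 2.06, adjusted p = 0.251).

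Saa4, the constitutive serum amyloid A of lipoproteins, was the only gene of the 10 with no overlap between the groups, a pattern that 7.41% of all genes tested had in this direction. It had 20.9, 26.4 and 33.4 CPM in CTR and 10.4, 14.5, 15.3 and 12.1 CPM in VPA. The spread was small within both groups, 26.9 ± 6.29 CPM (SD, n = 3) against 13.1 ± 2.20 CPM (SD, n = 4). The log2 fold change was −1.04 (SE 0.343, unadjusted p = 0.0175, adjusted p = 0.487 in edgeR), and the exact permutation p was 0.0286. These levels rest on 53, 134 and 61 counts in CTR and on 16, 47, 19 and 16 counts in VPA. Unlike Saa1, Saa2 and Saa3, its level in CTR was highest in replicate 3.

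Hp encodes haptoglobin, which binds haemoglobin released from red cells. Its gene (ENSMUSG00000031722) is on chromosome 8, spanning 109575128 to 109579172 of the − strand. It had 650.1, 254.9 and 1368.3 CPM in CTR replicates 1 to 3, and 94.7, 40.3, 293.8 and 46.1 CPM in VPA replicates 1 to 4. All VPA libraries but replicate 3 lay below all CTR libraries, and replicate 3 lay just above CTR replicate 2. The means were 758 ± 564 CPM (SD, n = 3) and 119 ± 119 CPM (SD, n = 4). The log2 fold change of −2.68 was the largest of the 10 in the main edgeR fit (SE 0.824, unadjusted p = 0.0126, adjusted p = 0.447 in edgeR; exact permutation test, p = 0.0857). With limma-voom it was −2.94, and those of Saa3, Itih4 and Orm2 were larger. DESeq2 gave −2.69 with an adjusted p of 0.0214. The edgeR value moved to −1.97 without CTR replicate 3 and to −3.66 without VPA replicate 3, the high library of each group, both of which carry slice culture number 71.

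Hpx encodes hemopexin, which binds free heme. Its gene (ENSMUSG00000030895) is on chromosome 7, spanning 105591613 to 105600137 of the − strand. It had 829.0, 550.9 and 1004.3 CPM in CTR, and 683.6, 503.6, 747.4 and 439.5 CPM in VPA. The groups overlapped, with the VPA libraries 1 and 3 above CTR replicate 2. The log2 fold change was −0.42 (SE 0.264, adjusted p = 0.775 in edgeR; exact permutation test, p = 0.229). The difference between the fold changes of Hp and Hpx was not tested, and their levels followed each other from library to library. The count of Hp was 0.784, 0.463 and 1.36 times that of Hpx in the CTR libraries, and 0.139, 0.0800, 0.393 and 0.105 times in the VPA libraries. This ratio, which does not depend on normalization, was lower in every VPA library than in every CTR library, and as a ratio picked after the values were seen it is given with no test.

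Orm1 and Orm2 encode orosomucoid (alpha-1-acid glycoprotein), a carrier of basic drugs and lipids in plasma. They lie in tandem on the + strand of chromosome 4, Orm1 (ENSMUSG00000039196) from 63344560 to 63348163 and Orm2 (ENSMUSG00000061540) from 63362449 to 63365878. Orm1 had 119.4, 146.7 and 74.6 CPM in CTR, and 133.2, 53.5, 59.4 and 123.9 CPM in VPA. VPA replicates 1 and 4 lay within the CTR range and replicates 2 and 3 lay below it. The log2 fold change was −0.30 (SE 0.396, adjusted p = 0.937 in edgeR; exact permutation test, p = 0.486). Orm2 had 39.8, 31.9 and 16.4 CPM in CTR and 31.3 and 42.3 CPM in VPA replicates 1 and 4, while VPA replicates 2 and 3, the low libraries of Orm1, were listed at 0 for it. Its log2 fold change was −0.69 (SE 1.48, adjusted p = 0.961 in edgeR). The value depended on the fit, at −4.40 with limma-voom (adjusted p = 0.290), −4.13 with a block by replicate number, −3.75 with a block by slice culture, and −1.52 to −0.25 when single libraries were dropped. The transcripts are 91.0% identical, and 32.6% of the windows in the 3′ end of Orm1 and 36.4% of those in Orm2 occur in another gene, so the split of reads between this pair is uncertain. Their paralog Orm3 was at 0 in every library.

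Serpina3n, an inhibitor of serine proteases of inflammatory cells, and Itih4, a plasma protein of the inter-alpha-trypsin inhibitor heavy chain family, had differences within the spread between replicates in edgeR. Serpina3n (ENSMUSG00000021091, chromosome 12 from 104406729 to 104414329, + strand) had 26.4 and 16.6 CPM in CTR replicates 1 and 2, and 16.0, 27.3 and 15.9 CPM in VPA replicates 2 to 4. CTR replicate 3 and VPA replicate 1 were listed at 0. Its log2 fold change was 0.03 (SE 1.47, adjusted p = 0.999 in edgeR), and the sign turned in 8 of 18 alternative fits, so it has no direction here. Itih4 (ENSMUSG00000021922, chromosome 14 from 30886476 to 30902353, + strand) had 21.3, 48.5 and 39.5 CPM in CTR and 40.5, 30.5 and 18.1 CPM in VPA replicates 1, 3 and 4, with VPA replicate 2 listed at 0. For Itih4 the log2 fold change was −0.73 (SE 1.13, adjusted p = 0.945 in edgeR). It was −4.83 with limma-voom (SE 1.48, unadjusted p = 0.00978, not past the adjusted test), and −0.29 in edgeR without VPA replicate 2, the library at 0. The standard errors of both genes allow a change of 1 on the log2 scale in either direction.

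**Figure D2:**
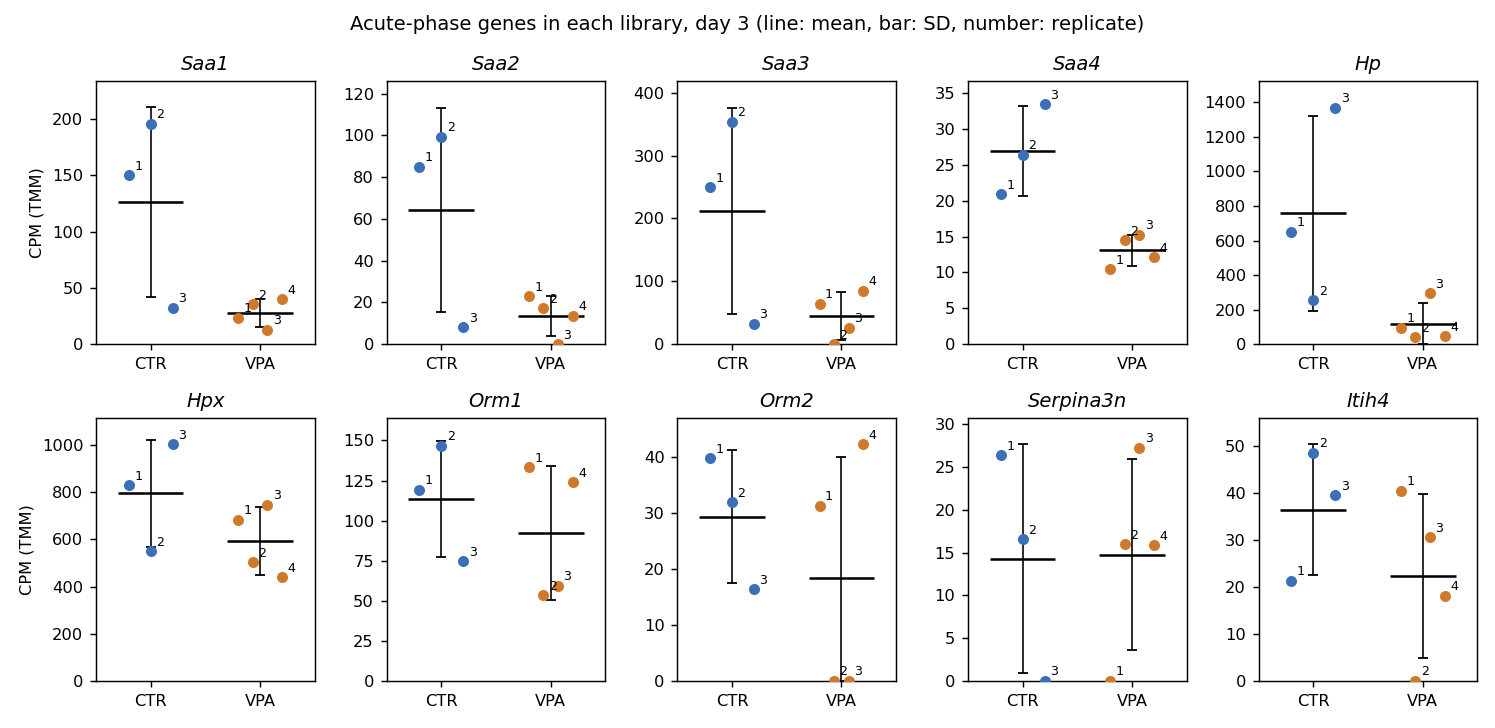
Each panel gives the level of a gene in CPM after TMM normalization in the 3 CTR and 4 VPA libraries, with the replicate number at each point, the mean as a line and the SD as a bar that stops at 0. The groups overlap for every gene but Saa4, and CTR replicate 3 is low for Saa1, Saa2 and Saa3 and high for Hp and Hpx.

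Over the 10 genes, 0 had an adjusted p under 0.05 in edgeR, where 0.00919% of the 10876 genes tested did, and all 10 had passed the filter on low counts. At an unadjusted p under 0.05, 3 of 10 were lower with VPA (Saa1, Saa4 and Hp) and 0 were higher in edgeR, against 4.62% and 3.65% of all genes tested. DESeq2 added Saa2 to these, where 4.5% of all genes with an adjusted p were lower at that threshold, and limma-voom added Saa3, Orm2 and Itih4, which gave 6, where 10% of all genes tested were. With a block, edgeR gave 3 genes by replicate number and 4 by slice culture, where 5.63% and 4.67% of all genes tested were lower. In DESeq2, 1 of 10 was lower at an adjusted p under 0.05, against 0.754% of the 15261 genes with an adjusted p. That gene was Hp, and Saa1 came next with an adjusted p of 0.0546. A fold change below 0 was found for 9 of 10 genes and for 54.2% of all genes, one of −1 or below for 5 of 10 against 8.66%, and one of −2 or below for 4 of 10 against 2.27%. The median log2 fold change was −0.88 for the 10 genes and −0.06 for all genes tested. Genes of 1 family and of 1 locus are not independent, so these counts describe the set and do not test it.

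CTR and VPA libraries share the slice culture numbers 71, 72 and 74 in their titles, and the values were also set side by side within each number, a comparison chosen after the data were seen. Saa1 had 32.3 CPM in CTR and 12.8 CPM in VPA in culture 71, 150.1 and 40.0 CPM in culture 72, and 195.9 and 35.7 CPM in culture 74. Hp had 1368.3 and 293.8 CPM in culture 71, 650.1 and 46.1 CPM in culture 72, and 254.9 and 40.3 CPM in culture 74. Both genes were thus lower with VPA within every number, and culture 71 had the highest Hp of both groups. Within all 3 numbers, 7 of the 10 genes (Saa1, Saa2, Saa3, Saa4, Hp, Hpx and Itih4) were lower with VPA, as were 19.9% of all genes tested. Orm1 and Orm2 were higher with VPA in culture 72, and Serpina3n in culture 71. In VPA, Saa2 was at 0 in culture 71, Saa3 and Itih4 in culture 74, and Orm2 in both. The labels do not say what the number marks.

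**Figure D3:**
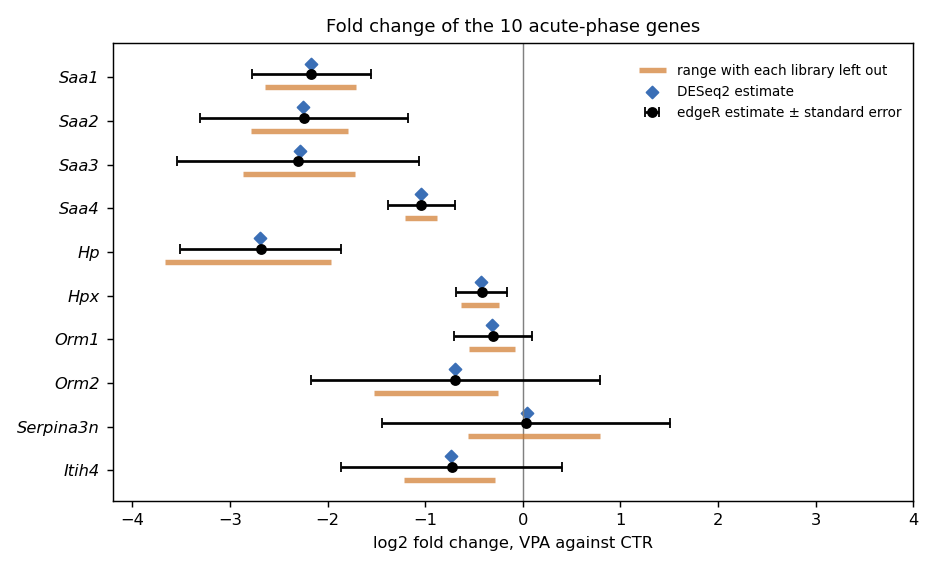
Log2 fold changes of VPA against CTR are shown for the 10 genes, as the edgeR estimate with its standard error, the DESeq2 estimate, and the range of the edgeR estimate when each library was left out in turn. The ranges of Saa1, Saa2, Saa3 and Hp stay at −1.71 or below, and that of Serpina3n runs from −0.56 to 0.79 across 0.

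Across the 7 libraries some of the genes varied together, which is a description, since libraries of a group share their treatment and all differ in depth. Hp followed Hpx (Pearson r = 0.89, Spearman rho = 0.93 of log2 CPM) and Saa4 (r = 0.81, rho = 0.75). Saa1 followed Saa2 (r = 0.88, rho = 0.75), and Orm1 followed Orm2 (r = 0.91, rho = 0.70), which may share reads. Saa3 varied with Orm1 (r = 0.84, rho = 0.86) more than with Saa1 (r = 0.55, rho = 0.75). Its highest r was that with Itih4 (r = 0.85, rho = 0.46). Saa3, Orm2 and Itih4 were all listed at 0 in VPA replicate 2, and the part of that 0 in their r was not tested. Pairs of Hp, Hpx or Saa4 with Saa1, Saa2, Saa3, Orm1 or Orm2 ranged from r = −0.19 for Saa2 with Hpx to r = 0.48 for Saa1 with Saa4. The latter is above the r of 0.41 for Saa2 with Saa3, so the sets are not sharply apart. CTR replicate 3 shows the contrast most plainly, being the lowest CTR library for Saa1, Saa2, Saa3, Orm1 and Orm2 and the highest for Hp, Hpx and Saa4.

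**Figure D4:**
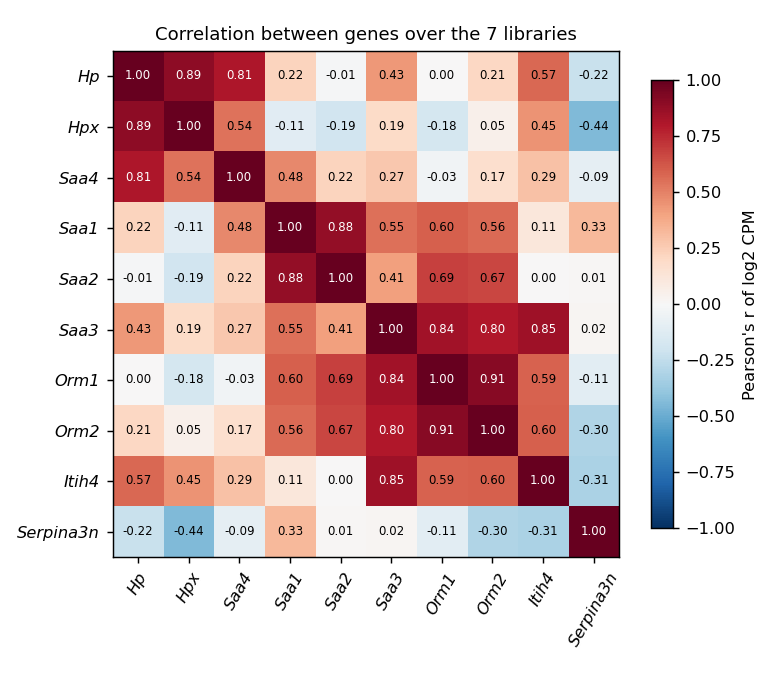
The colour and number of each cell give Pearson's r of log2 CPM between a pair of genes over the 7 libraries, from −1 (blue) to 1 (red). Hp, Hpx and Saa4 form a red square, with r of 0.54 to 0.89, and Saa1, Saa2, Saa3, Orm1 and Orm2 form another, with r of 0.41 to 0.91.

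Among 3271 other genes with a mean of at least 50 CPM, the 5 whose log2 CPM followed the mean of the acute-phase genes most closely over the 7 libraries were Prrc2c (r = 0.955), Rab22a (r = 0.955), Gm12346 (r = 0.952), Rbm25 (r = 0.95) and Prpf38b (r = 0.948). With 7 points and so many genes compared, these values are a ranking only. A listed 0 weighs heavily in a mean of log2 CPM. With each gene centred, that mean was lowest in VPA replicates 2 (−1.70) and 3 (−0.82), where 3 and 2 acute-phase genes were at 0. It was highest in CTR replicates 1 and 2 (1.29 in both), where 0 were. The part of these zeros in the ranking was not tested. Prrc2c had from 629 to 738 CPM in CTR and from 472 to 626 CPM in VPA, a much narrower range than the genes it followed. Gm12346 is annotated as a processed pseudogene that overlaps another locus, so its reads are uncertain. The log2 fold changes of these genes lay between −0.53 and −0.26, and none of the 5 passed the adjusted test in edgeR.

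Most cytokines that start the response were at a few counts or at 0. Of 12 cytokine genes only Il11 passed the filter, with 24.7 to 84.0 CPM in CTR and 20.9 to 106 CPM in VPA (log2 fold change 0.45, SE 0.602, adjusted p = 0.937 in edgeR). Il18, a cytokine of the interleukin-1 family, had 15, 43 and 13 counts in CTR and was listed at 0 in all 4 VPA libraries. Il33, an alarmin of the same family, had 32, 23 and 15 counts in CTR, 5 in VPA replicate 3 and 0 in the other VPA libraries. Il6, named here after its values were seen, had 5, 8 and 4 counts in CTR and 0 in the VPA libraries. Its CTR level was 1.91 ± 0.312 CPM (SD, n = 3), where a count of 0 allows 0.922 to 2.41 CPM in a single VPA library. That limit is not one for the VPA libraries together, and what a 0 means in them cannot be told. The gene did not enter the test over all genes. Osm, Il22 and Ctf1 had no count in any library.

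The receptors and adapters through which hepatocytes sense these cytokines had counts in both groups, apart from Il22ra1, which was at 0 in every library. Of 14 tested out of 15, 5 were higher and 9 lower, with a median log2 fold change of −0.10, and 0 passed the adjusted test in edgeR. Il6st, the shared signalling chain gp130, had 114 ± 9.36 CPM (SD, n = 3) in CTR and 103 ± 27.0 CPM (SD, n = 4) in VPA, and the kinase Jak1 had 437 ± 15.3 and 397 ± 65.3 CPM. Irak1, a kinase of the interleukin-1 receptor, had 77.2, 73.3 and 98.1 CPM in CTR and 67.2, 40.6, 42.5 and 53.6 CPM in VPA, without overlap, as 7.41% of all genes tested were in this direction (log2 fold change −0.70, SE 0.234, adjusted p = 0.490 in edgeR). Tnfrsf1b, a receptor of tumour necrosis factor named after its values were seen, had 30.3, 18.1 and 21.9 CPM in CTR and 43.1, 30.7, 36.9 and 32.5 CPM in VPA, all above CTR, as for 4.44% of all genes tested (log2 fold change 0.61, SE 0.288, adjusted p = 0.650 in edgeR).

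Among the transcription factors of the response, 6 of 12 tested were higher and 6 lower, with a median of 0.08. Creb3l3, a membrane-bound factor of the hepatocyte that is cleaved under stress of the endoplasmic reticulum, rose with VPA and was the only gene of all 10876 to pass the adjusted test in edgeR, where DESeq2 called 154 genes. It had 117.8, 78.8 and 115.1 CPM in CTR and 689.5, 519.9, 668.0 and 602.7 CPM in VPA (log2 fold change 2.58, SE 0.205, adjusted p = 0.0247 in edgeR). Its log2 fold change stayed between 2.40 and 2.67 with each library left out in turn, where the adjusted p in edgeR was 0.0407 without VPA replicate 2 and from 0.0501 (without VPA replicate 4) to 0.244 (without CTR replicate 1) otherwise. With a replicate block the adjusted p was 0.223 by replicate number and 0.306 by slice culture. Stat3 had 238 ± 45.7 CPM (SD, n = 3) in CTR and 279 ± 87.5 CPM (SD, n = 4) in VPA, and Hnf4a had 96.8 ± 52.4 and 115 ± 62.7 CPM. Of the feedback inhibitors, 5 of 8 tested were higher and 3 lower, with a median of 0.04 and 0 past the adjusted test in edgeR. Nfkbia, the inhibitor of NF-kB, had 166 ± 10.8 CPM in CTR and 170 ± 24.2 CPM in VPA, and Socs2 had 56.0 ± 10.5 and 37.6 ± 13.8 CPM. Nfkbib had 53.2 to 85.7 CPM in CTR, 113 and 77.2 CPM in VPA replicates 1 and 2, and was listed at 0 in the other two.

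The fold changes of other positive acute-phase proteins lay on both sides of 0. Of 25 tested out of 28, 10 were higher and 15 lower, with a median log2 fold change of −0.06, equal to that of all genes to the second decimal, and 0 passed the adjusted test in edgeR. Ceruloplasmin (Cp), the copper carrier of plasma, had 771, 392 and 1381 CPM in CTR and 221, 182, 532 and 181 CPM in VPA (log2 fold change −1.61, SE 0.527, adjusted p = 0.487 in edgeR). As for Hp, only VPA replicate 3 reached into the CTR range. Lrg1, a leucine-rich plasma glycoprotein, had 109.9, 95.0 and 225.3 CPM in CTR and 91.4, 42.4, 100.4 and 46.1 CPM in VPA (log2 fold change −1.04, SE 0.426, adjusted p = 0.575 in edgeR). Without CTR replicate 3 the value of Lrg1 was −0.58. Serpina10, an inhibitor of coagulation factor X named after its values were seen, had 40.2, 28.2 and 80.6 CPM in CTR and 17.4 CPM in VPA replicate 4, with the other VPA libraries listed at 0, without overlap as for 7.41% of all genes tested (log2 fold change −3.59, SE 1.56, adjusted p = 0.608 in edgeR). In the other direction, the metallothionein gene Mt2, whose product binds zinc and copper, had 330, 689 and 183 CPM in CTR and 1202, 1284, 466 and 1027 CPM in VPA (log2 fold change 1.31, SE 0.511, adjusted p = 0.566 in edgeR). It was 1.95 without CTR replicate 2 and 0.94 without CTR replicate 3. Mt1 had 1043 ± 702 CPM (SD, n = 3) in CTR and 2032 ± 649 CPM (SD, n = 4) in VPA. The fibrinogen chain Fgb had 1896 ± 844 and 1422 ± 820 CPM, and the antitrypsin gene Serpina1b had 2409 ± 1223 and 2287 ± 977 CPM, differences within the spread between replicates.

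Of the paralogs of the 10 genes, 6 of 14 were tested, 2 higher and 4 lower with a median of −0.23, and 0 passed the adjusted test in edgeR. Serpina3k had 153 ± 102 CPM (SD, n = 3) in CTR and 280 ± 204 CPM (SD, n = 4) in VPA, Itih2 had 101 ± 95.3 and 58.4 ± 48.9 CPM, and Itih5 had 19.8 ± 13.0 and 33.6 ± 22.7 CPM. Of the negative acute-phase proteins, 6 of 10 tested were higher and 4 lower, with a median of 0.22, and 0 passed the adjusted test in edgeR. Albumin (Alb) had 1545 ± 678 CPM in CTR and 2328 ± 1885 CPM in VPA, Trf, the iron carrier transferrin, had 4849 ± 3539 and 4171 ± 3228 CPM, and Ahsg, fetuin-A, had 1677 ± 689 and 2270 ± 826 CPM. Apoa4, an apolipoprotein, had 4.73, 15.4 and 6.03 CPM in CTR and 52.2, 57.5, 84.3 and 56.6 CPM in VPA, without overlap, as 4.44% of all genes tested had in this direction (log2 fold change 2.80, SE 0.467, adjusted p = 0.142 in edgeR, and 2.6e-05 in DESeq2). Of the genes for receptors and clearance of the secreted proteins, 4 of 9 were tested and all 4 had fold changes below 0, with a median of −0.33 and 0 past the adjusted test in edgeR. Scarb1, a receptor of high-density lipoprotein named after its values were seen, had 63.4, 94.4 and 67.4 CPM in CTR and 16.3, 6.42 and 53.6 CPM in VPA replicates 2 to 4, with VPA replicate 1 listed at 0, without overlap as for 7.41% of all genes tested (log2 fold change −1.99, SE 1.05, adjusted p = 0.709 in edgeR). Among them Lrp1, which takes up the heme-hemopexin complex, had 134 ± 23.8 CPM in CTR and 119 ± 29.1 CPM in VPA, and Cd36 had 52.2 ± 12.2 and 48.2 ± 23.9 CPM. Hmox1, which degrades heme, had 266, 122 and 112 CPM in CTR and 191, 86.1 and 197 CPM in VPA replicates 1 to 3, with VPA replicate 4 listed at 0.

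**Figure D5:**
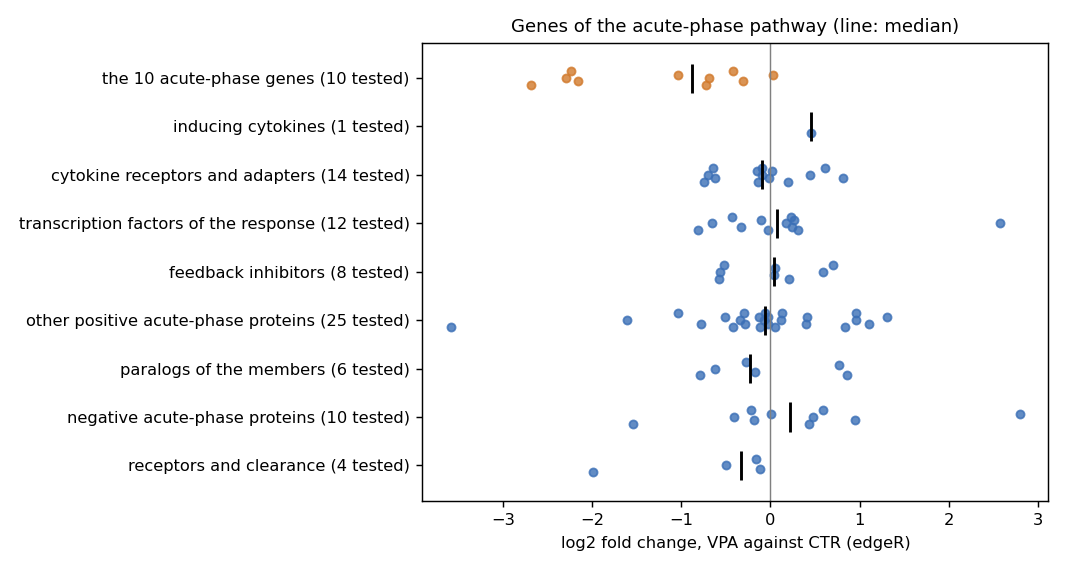
Each point is the edgeR log2 fold change, VPA against CTR, of a tested gene of the acute-phase pathway, in a row for each gene list, with the median as a line. The median of the 10 acute-phase genes lies at −0.88 and those of the 8 other lists lie between −0.33 and 0.45.

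The labelled tissue was checked by markers of its cell types, summed per library. Hepatocyte markers were detected for 13 of 14 genes, Ass1 being at 0 in every library, and their sum ranged from 2768 to 6707 CPM in CTR and from 1634 to 7079 CPM in VPA. Of the 10 tested, 8 had a fold change above 0, with 0 past the adjusted test in edgeR. Of all genes tested, 54.2% had a fold change below 0. The highest sums were those of CTR replicate 3 and VPA replicate 1. Each rested largely on 1 gene, Apoa1 with 3656 CPM in CTR replicate 3 and Alb with 5066 CPM in VPA replicate 1. Macrophage markers summed to 323 to 446 CPM in CTR and 291 to 591 CPM in VPA, with Adgre1 and Marco at 0 and 9 of 11 genes detected. All 8 neutrophil markers were at 0 in every library. Endothelial markers were lower in every VPA library, at 69.2 to 243 CPM against 255 to 281 CPM, with all 8 genes detected and 5 of the 6 tested having a fold change below 0. Markers of stellate cells and fibroblasts summed to 1957 to 4241 CPM in CTR and 1511 to 2926 CPM in VPA, with all 10 detected and 9 of 10 below 0. Their median log2 fold change was −0.98. The medians of endothelial and stellate markers were thus as low as that of the acute-phase genes (−0.88). The collagen genes Col1a1, Col1a2 and Col3a1, named after their values were seen, had 723 ± 218, 556 ± 238 and 597 ± 233 CPM (SD, n = 3) in CTR and 229 ± 38.9, 185 ± 30.1 and 209 ± 101 CPM (SD, n = 4) in VPA. The groups did not overlap for any of them, as for 7.41% of all genes tested. In edgeR their unadjusted p was 0.00015, 0.00096 and 0.0098, and their adjusted p was 0.112, 0.213 and 0.417. The study names Col1a1 and Col3a1 among the genes that were lower with VPA in its own analysis, made with DESeq2. Dcn was the only one of the 10 with a fold change above 0. Cholangiocyte markers summed to 268 to 616 and 258 to 742 CPM, and mesothelial markers to 1.64 to 22.1 and 1.61 to 21.5 CPM, with every gene of both lists detected. The most abundant marker was Cd68 for macrophages (87.8 ± 26.9 CPM in CTR and 138 ± 43.2 CPM in VPA), Dcn for stellate cells and fibroblasts (848 ± 386 and 1204 ± 489 CPM), Kdr for endothelium (74.8 ± 6.03 and 60.9 ± 53.0 CPM), Spp1 for cholangiocytes (337 ± 197 and 301 ± 206 CPM) and Wt1 for mesothelium (1.71 ± 2.96 and 5.65 ± 9.40 CPM). The part of these cell types in the levels of the acute-phase genes was not tested.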

How the data were processed

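RNA of mouse PCLS on day 3 of culture was analysed as QuantSeq 3′ libraries. The authors mapped single-end reads with STAR to GRCm38.p6, named StringTie for assembly, and deposited raw counts per Ensembl gene without normalization. The counting program, its use of strand and its treatment of reads that map to several genes are not given in the sources used here. No acute-phase gene overlaps another gene. Symbols and coordinates came from GENCODE M21.

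With R 4.3.3, edgeR 4.0.16 was fitted to all genes (TMM, filterByExpr, robust quasi-likelihood test, condition as the only term). P-values over 10876 genes were Benjamini-Hochberg adjusted, with a threshold of 0.05. DESeq2 1.42.0, limma 3.58.1 (voom), other normalizations and filters, a replicate block and leaving out each library were alternatives. The code was tested on simulated data, where edgeR called 65 of 183 genes given a log2 change of 2 at the dispersion of these libraries. A gene that did not pass the adjusted test may thus still have changed. Log2 CPM had a prior count of 2. Single genes had an exact permutation test, two-sided, over all 35 divisions into 3 and 4 libraries. Groups came from the sample titles. Libraries of a group differed by more than counting noise (chi-square per degree of freedom 14.7 to 27.3) and each was counted as 1 replicate. The labels do not say which libraries came from separate animals, so p-values measure the spread between these libraries. The study counts each mouse liver as a biological repeat, and the titles carry 4 slice culture numbers, 71 to 74, of which 3 occur in both groups. The repeats that the study gives for this sequencing are as many as these numbers, but no source used here states that a number marks a mouse, and a CTR library of number 73 was not analysed here.

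The acute-phase genes, the gene lists and the tests were chosen with earlier results of these data known. Named genes are the 10, in each pathway list the 3 with the highest mean CPM and those with an unadjusted p under 0.05, the 5 most alike, and in each marker list the genes at 0 and the most abundant. Outside this rule, and after their values were seen, the text names Il6, Osm, Il22, Ctf1, Il22ra1, Orm3, Tnfrsf1b, Scarb1, Serpina10, Ttr, Apoa1, Cps1, Cyp2e1, Stab1, Stab2, Cdh5, Col1a1, Col1a2 and Col3a1.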

Additional observations from a re-analysis of the deposited data

Results flagged for a closer look

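The total of VPA replicate 2 was 3102450 counts, against 1400887 to 1515954 in the remaining 3 libraries of its group, a gap of 0.932 of the range of the group. It was the only value that far from the others among 13 measures of the VPA group, and chance gives such a value in a share of 0.05 of groups for each measure checked, a share that grows with 13 of them. In this library Saa3, Orm2 and Itih4 were listed at 0, and Hp had its lowest level, 40.3 CPM.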

How the results depend on the processing

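The direction of the fold change was the same in all 18 alternatives for 9 of the 10 genes. Serpina3n turned to −0.25 with limma-voom, −0.029 without TMM, −0.061 without a filter, −0.014 with the replicate block by replicate number and as low as −0.56 with a library left out, where it ranged to 0.79. Other named genes with small fold changes turned sign as well. With a library left out, the range was −0.27 to 0.016 for Il6st, −0.11 to 0.66 for Hnf4a, −0.046 to 0.10 for Nfkbia, −0.41 to 0.39 for Serpina1b, −1.32 to 0.25 for Itih2, −0.91 to 0.52 for Trf, −0.13 to 0.89 for Alb, −0.86 to 0.00048 for Hmox1, −0.53 to 0.041 for Cd36 and −0.68 to 0.30 for Spp1. With the replicate block by replicate number, Serpina1b was at 0.047, Itih2 at 0.023, Trf at 0.091 and Spp1 at 0.040. With the block by slice culture, Il6st was at 0.014, Alb at −0.11 and Spp1 at 0.12. Nfkbia was at −0.018 without TMM and −0.056 without a filter. The number of acute-phase genes called was 0 in every fit but DESeq2, which called 1 (Hp, log2 fold change −2.69). The number of genes called of all tested was 1 in edgeR, 154 with DESeq2 (39 higher, 115 lower), 10 without a filter (2 higher, 8 lower) and 0 to 2 with each library left out, the 2 being found without VPA replicate 2 and without VPA replicate 4. Libraries of both groups share replicate numbers and slice culture numbers, and deviations of same-numbered libraries correlated by −0.0539, 0.0546 and 0.107 for replicates 1 to 3 and by 0.107, 0.0256 and 0.0546 for slice cultures 71, 72 and 74, and the numbers were not taken as pairs. The labels do not say what the slice culture number marks. With the replicate block by either number, 0 genes were called, and 3 (replicate number) or 4 (slice culture) acute-phase genes had an unadjusted p under 0.05, against 3 in the fit without a block. The shares of all genes tested that were lower at that threshold were 5.63%, 4.67% and 4.62%. By replicate number edgeR gave an unadjusted p of 0.0650 for Saa4, which dropped out, and of 0.0153 for Saa2, which came in. By slice culture Saa2 came in beside Saa1, Saa4 and Hp, and the adjusted p in edgeR was 0.494 for Saa1 (SE 0.276) and Hp (SE 0.369). Saa4 also dropped out without CTR replicate 3. With limma-voom 6 acute-phase genes had an unadjusted p under 0.05, where 10% of all genes tested were lower at that threshold, and the log2 fold changes of Saa3, Orm2 and Itih4 were −6.62, −4.40 and −4.83. With a library left out, the log2 fold change ranged from −2.64 to −1.71 for Saa1, −2.78 to −1.80 for Saa2, −2.86 to −1.71 for Saa3, −3.66 to −1.97 for Hp and −1.20 to −0.88 for Saa4. The cause of these shifts was not tested. Depth limits Il6 and other genes at a few counts in single libraries. Saa3 and Itih4 are at 0 in the deepest VPA library, replicate 2, where 3 counts are 0.922 CPM, and Orm2 is at 0 there and in the shallowest, replicate 3, where they are 2.41 CPM.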
